A study of Homo sapiens with 6 samples.

Results

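The genes described here encode the switch that lets a cell pass from G1 into S phase: the D-type cyclins CCND1 and CCND3, their kinases CDK4 and CDK6, the E-type cyclins CCNE1 and CCNE2, the inhibitors CDKN1A (p21) and CDKN1B (p27), the retinoblastoma protein gene RB1 and the transcription factor gene E2F1. They were taken by symbol, 10 genes of the 57150 in the table, each with 1 row, and all 10 passed the filter of a mean of at least 1 FPKM (fragments per kilobase of transcript, scaled to sequencing depth) that left 14419 genes to test. RNA came from H358 cells, a human non-small-cell lung cancer line of epithelial type. In 3 libraries the RNA-binding protein gene RBM47 was knocked down with shRNAs carried by lentivirus, and 3 libraries came from a control knockdown. The design calls them biological triplicates, all groups shared the 1 cell line, and the number of hairpins, the time after infection and any selection are not stated in the labels or design text.

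As background, growth signals raise D-type cyclins, which activate CDK4 and CDK6 to phosphorylate RB, the product of RB1. Phosphorylated RB releases E2F factors, which switch on the E-type cyclins, E2F1 itself and the genes of DNA synthesis. Cyclin E with CDK2 completes RB phosphorylation, while p21 and p27 bind cyclin-CDK complexes and hold back CDK2. In lung epithelium and its tumours this switch is a common point of lost growth control.

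RBM47 stood at 12.01, 13.4 and 13.5 FPKM under knockdown and at 85.2, 92.4 and 87.9 FPKM in controls (difference of log2(FPKM + 1) -2.68, limma, adjusted p = 2.04e-06), so that the libraries matched their labels. The total FPKM of a library ran from 651951 to 673552. The number of fragments is unknown, but the smallest nonzero values gave a relative depth of 1 to 1.04 in the knockdown libraries and of 1.09 to 1.16 in the controls. Of 8 epithelial and lung markers, the keratins, CDH1, CLDN4 and EPCAM lay above 255 FPKM in every library, NKX2-1 at 13.9 to 16.4 FPKM, and the surfactant gene SFTPB was listed at 0 throughout. Of the 7 that were tested 4 were lower (KRT8, KRT18, KRT19 and CDH1), beside 6.34% of all tested genes. The summed level of the 8 was 2791 to 2867 FPKM under knockdown and 3195 to 3454 FPKM in controls. Of the markers of other cell types, PTPRC did not exceed 0.122 FPKM, CDH5 0.199 FPKM and PDGFRB 0.154 FPKM, while COL1A1 (10.4 to 15.5 FPKM), CD68 (22.9 to 34.6 FPKM) and KDR (means of 1.43 FPKM under knockdown and 1.88 FPKM in controls) were present in each library. The part of these markers in the values below was not tested.

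Of the 10 genes, 2 were lower and 1 was higher in the RBM47 knockdown by limma (adjusted p under 0.05 over all tested genes), and 7 were not called. Over all tested genes 11.4% were called, 5.10% higher and 6.34% lower. That balance turned when the libraries were scaled to the same total, from 736 higher and 914 lower genes to 914 higher and 786 lower. CDKN1A and CCND1 fell to 71.2% and 84.3% of their control means, and CCNE2 rose to 173% of its control mean. The groups did not overlap in 5 of the 10 genes, and likewise in 34.0% of all tested genes. The median difference of the 10 genes was 0.06 on the log2(FPKM + 1) scale, beside 0.01 over all tested genes, and the median absolute difference was 0.14 beside 0.13. All differences below are on that scale, knockdown minus control, which understates the change of low genes such as CCNE1, CCNE2 and E2F1. In bulk RNA a change in the share of cells in one phase of the cycle and a change in RNA per cell cannot be told apart.

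**Figure D1:**
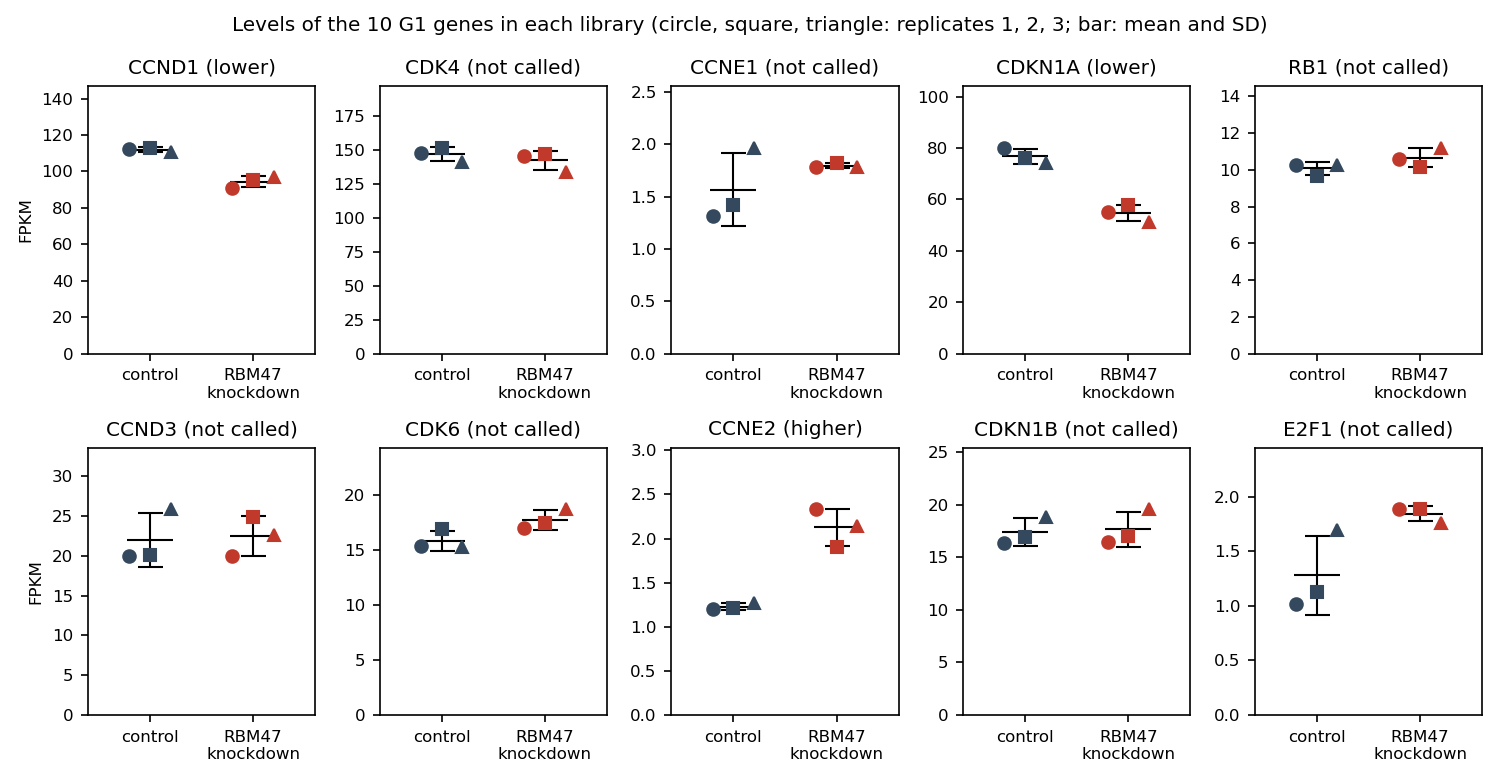
FPKM (vertical axis, from 0, scaled per gene) of the 10 genes in the 3 control and 3 RBM47 knockdown libraries. Symbols are libraries, the long dash is the mean and the error bar the SD. The groups lie apart in CCND1, CDK6, CDKN1A, CCNE2 and E2F1, and control replicate 3 is the highest control library for CCND3, CCNE1 and E2F1.

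FPKM is per length, so levels of the genes can be set side by side within a library. In the control group the order was CDK4 (147 ± 5.15 FPKM, SD, n = 3), CCND1 (112 ± 1.21), CDKN1A (76.8 ± 2.97), CCND3 (21.9 ± 3.39), CDKN1B (17.4 ± 1.31), CDK6 (15.8 ± 0.900), RB1 (10.1 ± 0.353), CCNE1 (1.57 ± 0.351), E2F1 (1.28 ± 0.362) and CCNE2 (1.23 ± 0.0371). The ranges of CDKN1B and CDK6 overlapped, and E2F1 overlapped both CCNE1 and CCNE2, while every control value of CCNE1 was above those of CCNE2. Neighbours elsewhere in this order did not overlap. In the knockdown libraries CCNE2, at 2.13 ± 0.212 FPKM, moved from the last place to the eighth, above the highest value of E2F1 and of CCNE1 in that group. Exons of INTS8 overlap those of CCNE2, as given below, and the part of INTS8 reads in this place was not tested. CCND2, the remaining D-type cyclin gene, was listed at 0 in all 6 libraries.

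Among the D-type cyclins, CCND1 was lower in the knockdown and CCND3 was not called. CCND1 (ENSG00000110092, chromosome 11, 69455855 to 69490184, hg19, as are all loci of the table) encodes cyclin D1, the cyclin that growth factor signals act on in many epithelial cells. The table gives this interval to 2 genes. It gives those below for CCND3 and CDK6 to 3 genes each, for CDK4 to 6 and for RB1 to 4. Such intervals are not the bounds of 1 gene. CCND1 lay at 91.1, 95.1 and 97.0 FPKM under knockdown against 112, 113 and 111 FPKM in controls. All 3 knockdown libraries were thus below every control library. The fall was 0.24 on the log2 scale (difference -0.24, SE 0.04, limma, adjusted p = 0.0119). The call held in each fit that left out 1 library (limma, adjusted p from 0.0174 to 0.0498). It held in 15 of all 16 alternatives (highest adjusted p = 0.0528). GENCODE exons of ORAOV1, on the opposite strand, cover 10.3% of the exonic bases of CCND1, and ORAOV1 had a difference of 0.05 (limma, adjusted p = 0.764).

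CCND3 (ENSG00000112576, chromosome 6, 41902671 to 42018095) encodes cyclin D3. It lay at 19.9, 24.9 and 22.7 FPKM under knockdown against 19.9, 20.1 and 25.9 FPKM in controls, so the groups overlapped. The difference was 0.04 with a 95% interval from -0.23 to 0.31 (limma, adjusted p = 0.861), and leaving out libraries moved it between -0.03 and 0.16.

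The kinases that bind D-type cyclins were not called. CDK4 (ENSG00000135446, chromosome 12, 58117544 to 58154190) was the most abundant of the 10 genes. It was measured at 146, 147 and 134 FPKM under knockdown against 148, 152 and 142 FPKM in controls, overlapping groups with replicate 3 the lowest in each. Its difference was -0.05, with an interval from -0.17 to 0.07 (limma, adjusted p = 0.583). Exons of TSPAN31, on the opposite strand, cover 43.2% of the exonic bases of CDK4, at a mean of 26.5 FPKM against 145 FPKM for CDK4.

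CDK6 (ENSG00000105810, chromosome 7, 92234235 to 92546501), the related kinase, lay at 17.0, 17.4 and 18.7 FPKM under knockdown against 15.4, 16.9 and 15.3 FPKM in controls. Every knockdown library was above every control library, by a narrow gap between 17.0 and 16.9 FPKM. The difference of 0.15 (interval 0.00 to 0.30) did not pass in limma over all genes (adjusted p = 0.175) or in any of its 16 alternatives.

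Of the CIP/KIP inhibitors, CDKN1A was lower in the knockdown and CDKN1B was not called. CDKN1A (ENSG00000124762, chromosome 6, 36644305 to 36655116), which encodes p21, lay at 55.1, 57.7 and 51.2 FPKM under knockdown against 80.1, 76.0 and 74.3 FPKM in controls. The groups were widely separated, with the highest knockdown library at 57.7 FPKM and the lowest control at 74.3 FPKM. CDKN1A fell by 0.48 on the log2 scale (difference -0.48, SE 0.06, limma, adjusted p = 0.00342), a size that ranked it 770 of 14419 tested genes by absolute difference. The call held in all 16 alternatives, with adjusted p from 0.00196 to 0.0201.

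CDKN1B (ENSG00000111276, chromosome 12, 12867992 to 12875305), which encodes p27, lay at 16.4, 17.0 and 19.6 FPKM under knockdown against 16.4, 16.9 and 18.9 FPKM in controls. Replicate 3 was the highest in each group and the groups overlapped. The difference was 0.02, with an interval from -0.17 to 0.21 (limma, adjusted p = 0.903), and its sign changed in fits that left out a library.

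Among the E-type cyclins, CCNE2 was higher in the knockdown and CCNE1 was not called. CCNE2 (ENSG00000175305, chromosome 8, 95825539 to 96128683, an interval the table gives to 12 genes) encodes cyclin E2. It lay at 2.33, 1.91 and 2.14 FPKM under knockdown against 1.20, 1.22 and 1.27 FPKM in controls. The lowest knockdown library was well above the highest control library. CCNE2 rose by 0.49 on the log2 scale (SE 0.12, limma, adjusted p = 0.0374), but the call was lost without any one of the 6 libraries (adjusted p from 0.0686 to 0.0871), at differences of 0.44 to 0.54. With a pseudocount of 0.1 in place of 1 the difference was 0.74 (limma, adjusted p = 0.0404). Exons of INTS8, on the opposite strand, cover 37.0% of the exonic bases of CCNE2. INTS8 stood at a mean of 38.0 FPKM against 1.68 FPKM for CCNE2 and was itself higher in the knockdown, by 0.32 (limma, adjusted p = 0.0356), a call that of the 6 leave-one-out fits only the one without control replicate 1 kept (adjusted p from 0.0492 to 0.103). The sources used here do not say if reads were counted by strand, and the part of INTS8 reads in the CCNE2 value was not tested.

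CCNE1 (ENSG00000105173, chromosome 19, 30302805 to 30315215), which encodes cyclin E1, lay at 1.78, 1.82 and 1.79 FPKM under knockdown against 1.31, 1.42 and 1.97 FPKM in controls. Control replicate 3 was the highest of all 6 libraries, so the groups overlapped. The difference was 0.13 (interval -0.18 to 0.45, limma, adjusted p = 0.564) and 0.24 without control replicate 3 (adjusted p = 0.312).

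The transcripts of RB and E2F1, on either side of the switch, were not called. RB1 (ENSG00000139687, chromosome 13, 48877887 to 49056122) lay at 10.6, 10.2 and 11.2 FPKM under knockdown against 10.3, 9.67 and 10.3 FPKM in controls, with a difference of 0.07 (interval -0.08 to 0.23, limma, adjusted p = 0.505). E2F1 (ENSG00000101412, chromosome 20, 32263489 to 32274210) lay at 1.89, 1.89 and 1.76 FPKM under knockdown against 1.02, 1.13 and 1.69 FPKM in controls. The groups did not overlap, but control replicate 3 was close to the knockdown libraries. The difference of 0.33 (SE 0.15, interval -0.01 to 0.67) did not pass (limma, adjusted p = 0.185), nor did it in any of 15 alternatives. It was 0.46 without control replicate 3 (adjusted p = 0.102). With 3 libraries a group, no exact permutation test (two-sided) can go below p = 0.1, and CCND1, CDK6, CDKN1A, CCNE2 and E2F1 reached that value (0.2 when Benjamini-Hochberg adjusted over the 10 genes).

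**Figure D2:**
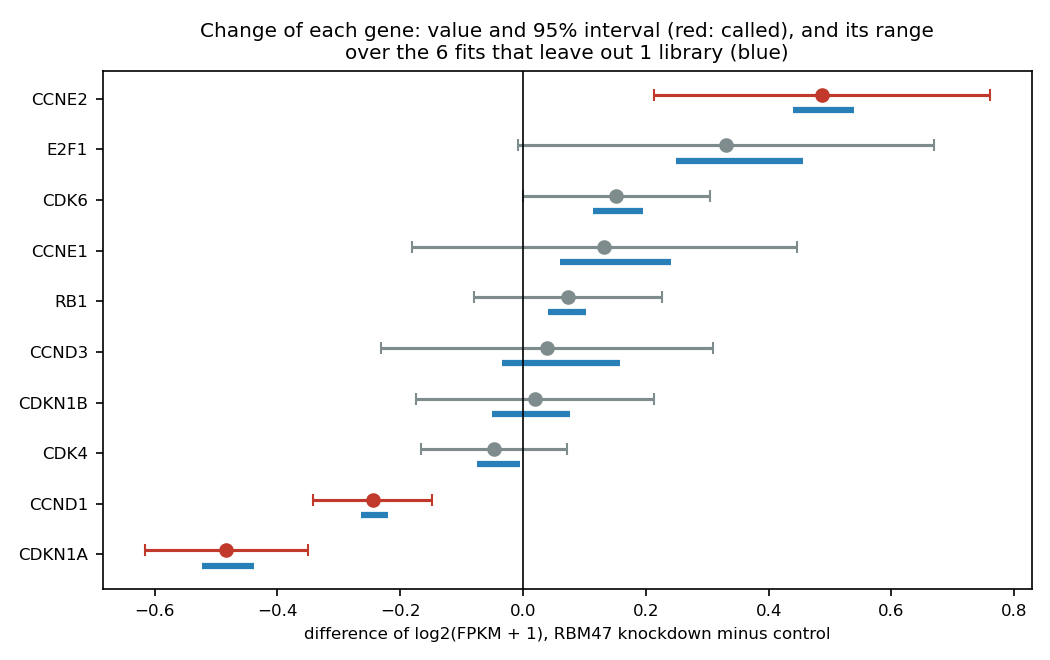
Difference of log2(FPKM + 1), knockdown minus control, for each of the 10 genes (horizontal axis), with its 95% interval from limma (red where called) and, in blue, the range over the 6 fits that leave out 1 library. CDKN1A (-0.48) and CCND1 (-0.24) lie below 0 and CCNE2 (0.49) above it, while the blue ranges of CCND3 and CDKN1B cross 0.

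To see whether related genes moved apart, the share that one gene of a pair held of the FPKM of both was computed in each library for 4 pairs. CDKN1A held 77.1, 77.2 and 72.4% of the CDKN1A and CDKN1B total in the knockdown libraries and 83.0, 81.8 and 79.8% in the controls. The shares did not overlap, with a difference of -5.97 percentage points (exact two-sided permutation test, p = 0.1, the smallest possible, and 0.133 adjusted over the 4 pairs). The total of both inhibitors was 71.5, 74.7 and 70.7 FPKM in the knockdown and 96.4, 92.9 and 93.2 FPKM in controls.

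CCNE1 held 43.3, 48.8 and 45.5% of the E-type cyclin total in the knockdown and 52.2, 54.0 and 60.8% in the controls, a difference of -9.77 percentage points (exact permutation test, p = 0.1, adjusted 0.133). CCNE1 was thus the larger part of the pair in each control library and the smaller part in each knockdown library. Both genes had low values, and the part of INTS8 reads in the CCNE2 value, and so in this share, was not tested. Their total was 4.11, 3.73 and 3.93 FPKM against 2.51, 2.64 and 3.24 FPKM. The CDK4 share of the CDK4 and CDK6 total was 89.6, 89.4 and 87.8% against 90.6, 90.0 and 90.3%, a difference of -1.37 percentage points (exact permutation test, p = 0.1, adjusted 0.133) that was -0.80 without RBM47 knockdown replicate 3. The CCND1 share of the D-type cyclin total overlapped between the groups, at 82.1, 79.2 and 81.1% against 84.9, 84.9 and 81.1% (exact permutation test, p = 0.3). Without control replicate 3 its difference went from -2.85 to -4.14 percentage points and the shares no longer overlapped.

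**Figure D3:**
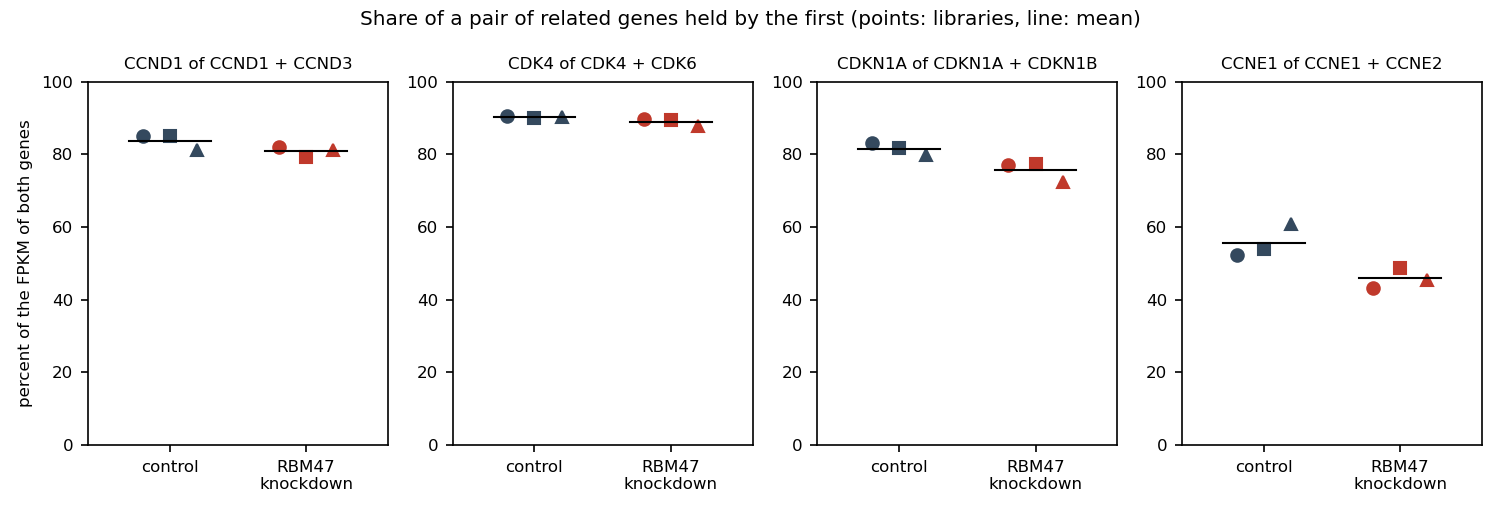
Percent of the summed FPKM of 2 related genes held by the first gene (vertical axis, 0 to 100), per library (points) with the group mean (line). CDKN1A holds 79.8 to 83.0% of its pair in the controls and 72.4 to 77.2% in the knockdown, and CCNE1 52.2 to 60.8% against 43.3 to 48.8%.

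The start region of E2F1 is shown because it is the one promoter among these genes that held letters of the E2F motif, named for the family it belongs to. RefSeq start regions (GRCh38.p14, from 250 bases before to 50 bases from the start on) were in the table for 8 of the 10 genes, in 11 entries, and CCND1 and CCNE2 had none. The letters TTTCCCGC, TTTCGCGC, TTTGCCGC or TTTGGCGC, on either strand, occurred in 1 of these 8 genes, and in 3.32% of all 35097 start regions in the table. Here and below a gene counted if any of its start regions matched, while shares over the whole table are per start region. The E2F1 region (chr20:33686336-33686635, minus strand, GRCh38.p14) held 2 matches, in capitals, at positions -33 to -26 and -20 to -13 from the start, which face opposite ways. The motif TTTGAA, known from mitotic promoters, occurred in none of the 8 genes and in 15.2% of all start regions.
E2F1 start region: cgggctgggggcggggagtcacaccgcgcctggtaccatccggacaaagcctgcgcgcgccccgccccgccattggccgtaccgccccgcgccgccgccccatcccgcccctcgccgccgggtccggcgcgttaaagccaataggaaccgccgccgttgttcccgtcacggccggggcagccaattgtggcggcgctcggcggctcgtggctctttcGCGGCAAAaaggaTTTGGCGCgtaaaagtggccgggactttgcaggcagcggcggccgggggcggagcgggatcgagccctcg

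The list of E2F target genes of S phase holds replication and nucleotide synthesis genes. Of 27 tested, 11 were higher, none was lower and 16 were not called, beside 5.10% higher over all tested genes, and 25 had a positive difference (median 0.30). Since the list was chosen with earlier results of these data known, these counts are no test against that share. RRM2, a subunit of ribonucleotide reductase, lay at 9.24, 8.73 and 8.87 FPKM under knockdown against 3.32, 5.12 and 3.86 FPKM in controls, a difference of 0.98 (SE 0.13, limma, adjusted p = 0.00452). The thymidine kinase TK1 rose by 0.81 and the replication fork gene GINS1 by 0.75 (limma, adjusted p = 0.00743 and 0.00381), and all 3 calls held without any one library. The thymidylate synthase gene TYMS rose by 0.81 (limma, adjusted p = 0.0481), a call kept in 1 of 6 leave-one-out fits, the one without RBM47 knockdown replicate 1. The count of 11 fell to 5, 3 and 6 without knockdown replicates 1, 2 and 3 and to 3, 4 and 3 without control replicates 1, 2 and 3, while the median stayed between 0.27 and 0.31. With no filter on low values the count was 4, with quantile normalization 7, and with libraries scaled to the same total 12. CDC6, which helps load the replicative helicase, was not called, at -0.03 (limma, adjusted p = 0.844).

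Of the 25 genes of this list with a start region in the table, 15 (60.0%) held one of the E2F motifs, 8 of the 11 that were higher and 7 of the 13 that were tested and not called. This is a description, and no test was made. The 30 bases around the first match in the direction of transcription are shown for 4 of the genes that rose, with the motif in capitals. Counted from the start, these capitals lie after it in MCM2 (2 to 13) and GINS1 (5 to 12). They lie before it in MCM6 (-152 to -141) and TYMS (-39 to -32). In MCM2 and MCM6, subunits of the replicative helicase, matches on the 2 strands overlap, so that the capitals run over 12 bases. Their differences were 0.30 and 0.29 (limma, adjusted p = 0.0423 and 0.0379). MCM2 lies at chr3:127598402-127598431 (plus strand), MCM6 at chr2:135876577-135876606 (minus), TYMS at chr18:657603-657632 (plus) and GINS1 at chr20:25407667-25407696 (plus), all GRCh38.p14.
MCM2: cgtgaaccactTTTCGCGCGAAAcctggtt
MCM6: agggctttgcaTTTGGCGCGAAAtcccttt
TYMS: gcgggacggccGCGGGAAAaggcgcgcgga
GINS1: agctttgttcgGCGCCAAAgcgcggagcgg

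Partners and relatives of RB and E2F1 were measured too. Of 14 tested pocket proteins, E2F factors and subunits of the DREAM repressor complex, none was called by limma, beside 11.4% of all tested genes. Of these 14 genes, 4 had an unadjusted limma p under 0.05, and 1 of 16 was called with no filter on low values. The most abundant, RBBP4, a histone-binding subunit, lay at 116 ± 0.857 FPKM in the knockdown and 116 ± 1.98 FPKM in controls (SD, n = 3). RBL2, the gene of the RB relative p130, lay at 42.8 ± 2.32 and 40.4 ± 0.811 FPKM (difference 0.08, limma, adjusted p = 0.37). Of 8 tested further cyclins, CDKs and CDK activators, 2 were higher and none lower, beside 5.10% and 6.34% over all tested genes. The S phase cyclin CCNA2 lay at 4.71, 6.28 and 6.38 FPKM under knockdown against 1.77, 3.24 and 2.57 FPKM in controls (difference 0.96, SE 0.17, limma, adjusted p = 0.0148), and the fits without RBM47 knockdown replicate 2 or control replicate 3 lost the call (highest adjusted p = 0.0665). The phosphatase CDC25B, which activates CDKs, rose by 0.55 (limma, adjusted p = 0.00598). CDK2, the partner of cyclin E, was not called, at 20.6 ± 1.44 against 15.7 ± 2.61 FPKM (difference 0.38, limma, adjusted p = 0.0674), and was named after its values were seen.

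Other CDK inhibitors went both ways. Of 6 tested, 2 were higher and 1 lower, where 5.10% and 6.34% of all tested genes were. CDKN2B, which encodes the CDK4 and CDK6 inhibitor p15, lay at 55.7, 55.0 and 54.9 FPKM under knockdown against 71.6, 76.4 and 71.0 FPKM in controls, groups that lie far apart (difference -0.40, SE 0.05, limma, adjusted p = 0.00308). CDKN3, a phosphatase that acts on CDKs and is made mostly in late cell cycle phases, rose from 4.12 ± 0.150 to 10.07 ± 1.67 FPKM (SD, n = 3), a difference of 1.10 (limma, adjusted p = 0.0024). CDKN2C, which encodes p18, rose by 0.74 (limma, adjusted p = 0.0328), a call kept in 1 of 6 leave-one-out fits, the one without RBM47 knockdown replicate 3. CDKN1C, the remaining CIP/KIP gene, was not called (difference -0.48, limma, adjusted p = 0.0571). It lay at 0.952, 1.38 and 1.07 FPKM under knockdown against 2.14, 1.76 and 2.04 FPKM in controls, and was named after its values were seen. Of 19 tested genes of ubiquitin ligases that degrade G1 regulators, with their partners and relatives, 2 were higher and 1 lower. Over all tested genes the shares were 5.10% and 6.34%. CKS1B, the cofactor with which SKP2 marks p27 for degradation, lay at 55.7, 60.8 and 56.6 FPKM against 36.3, 42.5 and 38.8 FPKM (difference 0.55, limma, adjusted p = 0.00373). Its symbol has 2 rows, of which the higher was used. Its relative CKS2 rose by 0.51 and FBXO31, which targets cyclin D1, fell by 0.36 (difference -0.36), calls that were lost without RBM47 knockdown replicate 2 or any one control library for CKS2, and without any one control library for FBXO31.

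Inputs to the switch were also measured. Of 16 tested mitogen and MYC genes 5 were lower and none higher, beside 6.34% lower over all tested genes. This list, too, was chosen with earlier results of these data known. MYC, the transcription factor that represses CDKN1A and raises G1 cyclins, lay at 33.5, 32.8 and 31.8 FPKM under knockdown against 49.2, 44.1 and 45.5 FPKM in controls, without overlap (difference -0.49, SE 0.06, limma, adjusted p = 0.00301). JUN, a subunit of AP-1, a factor that drives CCND1, fell by 0.36 (difference -0.36, limma, adjusted p = 0.00945). SPRY2, a feedback regulator of the ERK pathway, had a difference of -0.30 (limma, adjusted p = 0.0184), and its call was kept in 1 of 6 leave-one-out fits, the one without RBM47 knockdown replicate 3. The count of 5 became 2, 2 and 5 in the fits leaving out knockdown libraries 1, 2 and 3, and 3, 2 and 2 in those leaving out control libraries 1, 2 and 3. It was 3 with no filter on low values, 3 with no trend and 6 with array weights.

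Beside the changes of CDKN1A, CCND1 and CCNE2, genes of G2 and M phase differed: all 18 tested were higher, beside 5.10% over all tested genes. Because these genes were chosen with earlier results of these data known, the count is no test against that share. Their summed level was 148 to 211 FPKM in the knockdown libraries and 66.0 to 88.0 FPKM in controls. NUSAP1, a spindle protein, rose by 1.35, the survivin gene BIRC5 by 1.27, the topoisomerase TOP2A by 1.25 and the kinetochore gene CENPF by 1.22 (limma, adjusted p = 0.00457, 0.00298, 0.00246 and 0.0044), each in all 6 leave-one-out fits. The count of 18 became 18, 10 and 13 in the fits leaving out knockdown libraries 1, 2 and 3, 11, 13 and 11 in those leaving out control libraries 1, 2 and 3, and 11 with no filter on low values, while the list median stayed between 0.94 and 1.18 in these fits. Their part in the values of the 10 genes was not tested.

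**Figure D4:**
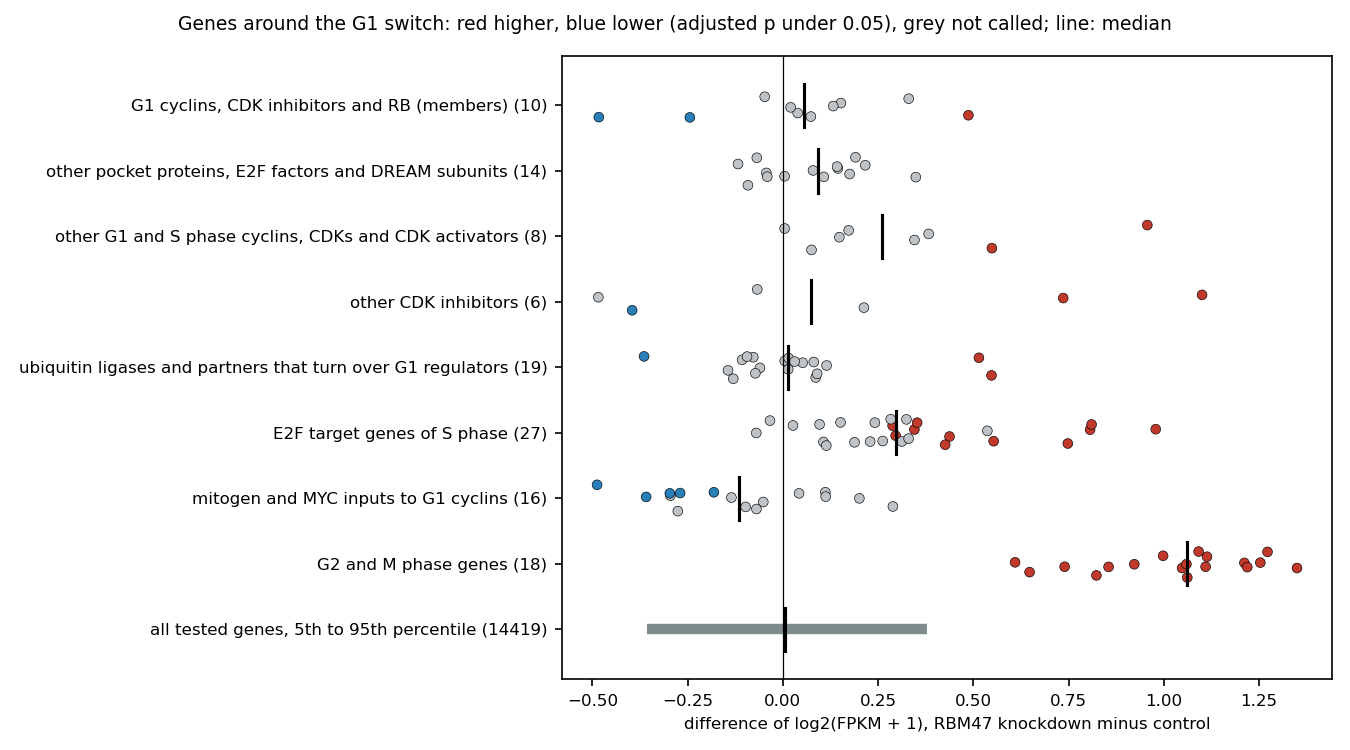
Difference of log2(FPKM + 1), knockdown minus control (horizontal axis), of each tested gene of the lists (points, number tested in brackets), red where higher, blue where lower and grey where not called, with the list median as a line. The grey bar is the range from the 5th to the 95th percentile of all tested genes (-0.36 to 0.38), which all 18 genes of G2 and M phase exceed, while the median of the 10 G1 genes is 0.06.

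The genes whose profile over the 6 libraries was most like that of a called member were sought among 10325 genes averaging 5 FPKM or more, by the root mean square difference of centred log2(FPKM + 1) values. For CCND1 they were CD2AP, TMOD3 and LACTB2 (0.0129, 0.0131 and 0.0156). For CDKN1A they were RP11-153A23.6, ARMC7 and MAP1B (0.0208, 0.0354 and 0.038), and for CCNE2 they were SOX13, APOL3 and DNAJB4 (0.0446, 0.051 and 0.053). CCNE2 itself averaged 1.68 FPKM, below the limit of 5 FPKM, and the added 1 shrinks its change more than theirs. From control to knockdown mean, CCNE2 went from 1.23 to 2.13 FPKM. SOX13 went from 7.17 to 10.2 FPKM, APOL3 from 11.6 to 16.4 FPKM and DNAJB4 from 15.0 to 21.4 FPKM. With 6 libraries in 2 groups, likeness of this kind rests largely on the difference between the groups.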

How the data were processed

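The authors deposited gene-level FPKM of 3 RBM47 knockdown and 3 control knockdown libraries, made with a stranded mRNA kit per the labels. Per the submitters' processing notes, the tools were Cuffdiff 2.2.0 and TopHat 1.4.1 and the build was hg19. Their settings, the use of strand and any scaling between libraries are not stated, and the number of fragments is unknown. Because FPKM are no counts, count models were not used. Positions are those of the deposited table, in hg19.

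The 14419 genes averaging 1 FPKM or more were fitted on log2(FPKM + 1) with limma 3.58.1 (R 4.3.3, trended prior), knockdown against control over all 6 libraries, with Benjamini-Hochberg adjustment over all of them and a threshold of 0.05. Named were the 10 genes, RBM47, in each further list up to 4 called genes of largest absolute difference or, where none was called, the 2 of highest mean, and MYC. Some genes and a list that this rule covers are not reported here. CDC6, CDK2, CDKN1C, CCND2, INTS8, ORAOV1, TSPAN31, MCM2, MCM6 and the cell type markers fall outside this rule. They were named after their values were seen. The 10 genes and the lists were chosen with earlier results of these data known. Exon overlap was taken from GENCODE release 29 by Ensembl identifier, which need not be the annotation used for the FPKM. Relative depth was the most frequent ratio of values under 0.3 FPKM between libraries. On simulated data of 14419 genes, against which the fit was checked, 58% of 100 genes changed by 0.5 and 92% of 100 changed by 1 were recovered. Of the calls there, 5.06% were unchanged genes. The noise was normal, independent between genes and of the variances limma had fitted, and no other gene was changed. With 1650 genes called in the data, these rates need not carry over. Alternatives were pseudocounts of 0.1 and 0.5, other filters, 3 scalings, no trend, array weights, a replicate block and leaving out each library. Python 3.11.15 and matplotlib 3.10.9 drew the figures.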

Additional observations from a re-analysis of the deposited data

How the results depend on the processing

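The count of called genes over the whole table was 1650, and it went to 916 with no filter on low values, to 837 with the replicate number as a block, and to between 630 and 1255 in the fits without 1 library. Of the 10 genes 3 were called, 2 in each fit without 1 library (CDKN1A and CCND1) and 1 with the replicate block, where CCND1 had adjusted p = 0.0528 and CCNE2 0.0972 in limma. CCNE2 was also not called with no filter (adjusted p = 0.0675) or with quantile normalization (0.0583), and the cause was not tested. With the replicate block 5 E2F target genes and 17 genes of G2 and M phase were higher, and 2 mitogen and MYC genes were lower. Deviations of same-numbered libraries from their group means had correlations of 0.02, -0.10 and 0.08 over genes. No strong pairing by number was thus seen over the table, and a weaker one, or one in some genes, was not tested. Only replicate 3 of each group correlated best with its own number. CCND3 had differences from -0.0346 to 0.157 without 1 library, below 0 in 3 of these fits. CDKN1B had -0.0513 to 0.0772 without 1 library and -0.0167 with array weights. The other 8 of the 10 genes kept their sign in every alternative run. RBM47 kept its fall (-2.71 to -2.63 without 1 library). The shares of CDKN1A, CCNE1, CDK4 and CCND1 in their pairs kept their sign, at -6.86 to -4.38, -11.5 to -7.21, -1.69 to -0.80 and -4.14 to -2.08 percentage points without 1 library. With the replicate block, their exact sign-flip tests gave p = 0.25, the smallest possible, or for CCND1 0.5. CCNE1, CCNE2 and E2F1 drop out at a mean of at least 5 FPKM. No gene of the 10 has more than 1 row, so a sum of rows was not needed. With unknown depth, the values of genes near 1 FPKM carry an unknown counting error.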
